A study of Mus musculus with 2 samples.

Results

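The replication-dependent histone genes were examined in single-cell transcriptomes of wild type and PHD2 knockout mouse embryonic stem cells. Members were all rows of both count matrices whose symbol starts with Hist1h, Hist2h, Hist3h or Hist4h, the older names of these genes, and 69 of the 27998 listed genes qualified. By symbol, 6 rows were for the linker histone H1, 19 for H2A, 19 for H2B, 12 for H3 and 13 for H4, and 55 bore the name of the Hist1 cluster, 11 of Hist2, 2 of Hist3 and 1 of Hist4. The 53 Hist1 rows that GENCODE M21 annotates are on chromosome 13. GENCODE M21 lists 65 of the 69 as protein coding, Hist1h2al as a processed pseudogene at chr13:51202727-51203065, away from the other Hist1 genes, and the second of 2 rows named Hist2h2bb (ENSMUSG00000050936) as the lincRNA Gm42743, and it does not hold Hist1h2bm and Hist1h2bh. All 4 were counted with their symbols' types.

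The cells were AB2.2 mouse embryonic stem cells, an established line, taken after 4 days of differentiation toward mesendoderm, the shared precursor state of mesoderm and endoderm. One group was labelled WT and the other PHD2-KO, with 1 library from the 10x Genomics droplet platform per group, so the differences have no replicate check and no test between the groups was possible. PHD2, the product of Egln1, is a prolyl hydroxylase that senses oxygen. The sources used here do not say whether the knockout line is a single clone or which part of Egln1 was altered. After removal of low-quality and doublet-like barcodes, 8515 wild type cells (201481884 UMIs, unique molecular identifiers that each tag 1 captured transcript) and 6927 knockout cells (157754893 UMIs) remained.

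Replication-dependent histone genes supply the protein that packages newly copied DNA. H2A, H2B, H3 and H4 form the core of the nucleosome, and H1 binds the DNA where it enters and leaves that core. These genes have no introns, are used mainly in S phase, and make mRNA that ends in a short stem-loop, bound by the protein SLBP, where other mRNA has a poly(A) tail. Replication-independent histones such as H2A.Z and the H3.3 proteins are made in all phases from polyadenylated mRNA. The sources used here do not state the primer of the reverse transcription. If it bound poly(A) tails, transcripts ending at the stem-loop would be counted only in part, so the levels below are those of captured histone RNA and not of the whole histone mRNA pool. This was not tested.

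The stem-loop is shown first because it is what sets this family apart from other genes. In the GENCODE M21 transcripts of mm10, a stem of 6 bases opening with GG, a loop of 4 bases opening with TTT and the exact reverse complement of the stem was found in 42 of the 67 members with an annotated transcript, and in 79 of all 55450 annotated genes (0.142%). The commonest form, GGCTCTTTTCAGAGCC, was present in 24 members, 10 of them H2A genes, and in no H4 gene. The form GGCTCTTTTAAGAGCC was present in 6 members. H4 genes carried their own forms, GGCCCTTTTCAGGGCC in 7, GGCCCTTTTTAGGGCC in 2 and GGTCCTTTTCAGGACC in 2. The remaining form, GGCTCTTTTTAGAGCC, was in 1 H2A gene. The following windows show the transcript sense strand, 5′ to 3′, around the stem-loop (capitals) of 7 members that the results turn on.
Hist1h1e: acccaaaGGCTCTTTTCAGAGCCacccaca
Hist1h2ap: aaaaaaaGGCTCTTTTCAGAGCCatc
Hist1h2ae: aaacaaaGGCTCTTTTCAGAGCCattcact
Hist3h2ba: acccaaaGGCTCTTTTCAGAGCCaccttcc
Hist1h3e: ccaaaacGGCTCTTTTAAGAGCCacctcca
Hist1h4d: aaccaaaGGCCCTTTTCAGGGCCactacct
Hist1h4i: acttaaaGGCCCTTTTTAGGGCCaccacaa

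In Hist1h2ap the bases directly before the stem are a run of 12 A, and in Hist1h2ae a run of 8 A ends 4 bases before it. A run of 8 or more A was present anywhere in the transcript of 7 members, 5 of which were at 5 CPM or more (CPM, UMIs summed over the kept cells and divided by the library total, per 1000000), against 16 of the 60 members with shorter runs. The others of the 7 were Hist1h2ao and Hist1h2ac. Hist1h2ao has the same run of 12 A directly before the stem and was at 0.114 CPM in wild type cells. Hist1h2ac has the longest run, 15 A, and was at 0.213 CPM. The annotated transcript went on for 100 bases or more past the stem-loop in 21 members, of which 10 were at 5 CPM or more. It ended within 100 bases in 21 members, of which 6 reached that level, and it held no stem-loop in 25, of which 5 did. The annotations of Hist1h1b (743 bases) and Hist1h1a (741 bases) were among these 25. These counts describe the annotation and the levels side by side.

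Summed over all members, histone RNA was at 1547 CPM in wild type cells (95% Poisson interval 1542 to 1553) against 1416 CPM in the knockout (1410 to 1422), a ratio of knockout over wild type of 0.915 (0.910 to 0.920). The types did not move together between the libraries. H1 was higher in the knockout library, at 299.6 CPM in the wild type and 391 CPM in the knockout (ratio 1.30, interval 1.29 to 1.32), and H2A was lower, at 1054 and 824 CPM (ratio 0.781, interval 0.776 to 0.787). Both directions were the same under every scaling and cell weighting tried, whereas the sum over all members reached 1.01 when 5 bins of cells by G2 and M phase genes weighed equally. Intervals here and below measure counting error alone, not how far cultures or clones would differ. In sums over cells, fewer cells with a transcript and less RNA per cell cannot be told apart.

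H2B was at 49.6 and 51.5 CPM (1.04, interval 1.01 to 1.07), H3 at 76.2 and 76.5 CPM (1.004, interval 0.980 to 1.03) and H4 at 67.8 and 73.5 CPM (1.09, interval 1.06 to 1.11), the wild type first. The ratios of these 3 types changed sides with the scaling: with median-of-ratios size factors, which lower every log2 ratio by 0.172, they were 0.922, 0.891 and 0.963. H1 thus made up 19.4% of histone UMIs in wild type and 27.6% in knockout cells, and H2A 68.1% and 58.2%. Rows named Hist1 gave 97.2% and 96.8% of them. Hist2 genes summed to 33.5 and 38.5 CPM, Hist3 genes to 6.71 and 4.46 CPM and the single Hist4 gene to 3.003 and 2.63 CPM.

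Of the 69 members 66 had at least 1 UMI, and 21 reached 5 CPM in whichever library was higher, the level used here for calling a gene measured. Hist2h2aa2, Hist1h2br and Hist1h4m had no UMI in either library. A difference of 1.5-fold or more was called, which 0 of the 21 measured members showed upward and 1 showed downward in the knockout. Among all 8540 measured genes 11.8% were called higher and 2.35% lower. The median log2 ratio, taken with a pseudocount of 1 CPM that understates changes of low genes, was 0.02 over the measured members and 0.16 over all measured genes. Of the 21 members, 12 had a ratio above 1 and 9 below.

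**Figure D1:**
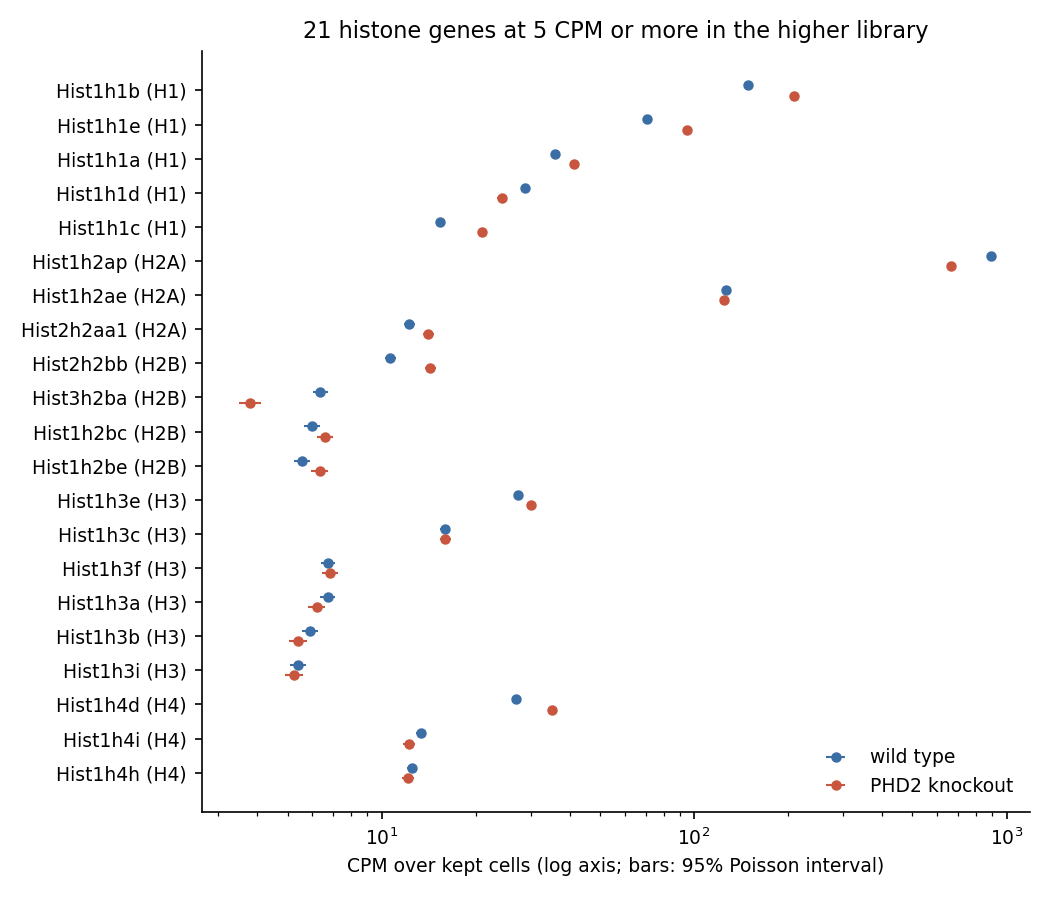
Levels of the 21 measured histone genes (rows, with their type) in CPM on a log axis, for the wild type library (blue) and the PHD2 knockout library (red), with 95% Poisson intervals. Hist1h2ap stands far to the right of the others at 895 and 663 CPM, and Hist3h2ba is the member whose points lie farthest apart.

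The linker histone genes carried most of the upward shift. Hist1h1b (ENSMUSG00000058773; mm10, chr13:21779883-21780625, minus strand) was at 148 CPM in wild type cells against 209 CPM in the knockout, a ratio of 1.41 (1.38 to 1.43). Hist1h1e (ENSMUSG00000051627; chr13:23620629-23622558, minus strand) was at 70.7 and 94.6 CPM, 1.34 times as high in the knockout (1.31 to 1.37). Hist1h1c was at 15.4 and 20.99 CPM (ratio 1.36). These 3 linker genes thus lay between 1.34 and 1.41, just under the 1.5-fold limit, and the intervals of all 3 were above 1.

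The other linker genes differed from them in size or direction. Hist1h1a was at 35.8 and 41.3 CPM, a ratio of 1.15. Hist1h1d was at 28.8 CPM in wild type cells against 24.2 CPM in the knockout, a ratio of 0.840 (0.807 to 0.876). Hist1h1d was thus the one measured linker gene with less RNA in the knockout library. Hist1h1t, the testis linker histone gene, had 99 UMIs in wild type and 155 in knockout cells (0.491 and 0.983 CPM). It stayed below the measured level, and of 6 male germ cell markers Acrv1 had no UMI in either library and Tnp1 had 0 and 1. Without Hist1h1b the remaining H1 genes summed to 151 and 182 CPM, a ratio of 1.20.

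H2A levels were mostly those of a single gene. Hist1h2ap (ENSMUSG00000094777; chr13:21833026-21833507, minus strand) was at 895 CPM (891 to 899) from 180312 UMIs in wild type cells and 663 CPM (659 to 667) from 104603 UMIs in the knockout, a ratio of 0.741 (0.735 to 0.747). It held 57.8% of all histone UMIs in wild type and 46.8% in knockout cells. Divided by the length of the annotated transcript, Hist1h2ap was at 1857 and 1376 CPM per kb, Hist1h1b at 199.7 and 281 and Hist1h2ae at 180.4 and 177. Whether UMI counts scale with transcript length in these libraries was not tested. Without Hist1h2ap the H2A genes summed to 159 and 161 CPM (ratio 1.01) and all histone genes to 652 and 753 CPM (ratio 1.15). The lower sum of H2A in the knockout library was therefore the lower level of Hist1h2ap.

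The level of Hist1h2ap depends on how reads shared with near-identical genes were counted. Of the 90-base windows of its annotated transcript, 92.4% also occur in Hist1h2ao, and 7.63% occur in no other gene. The same kind of sharing held for 28 members in all, of which fewer than 50% of windows were unique, and 5 of these were measured (Hist1h2ap, Hist2h2aa1, Hist1h3e, Hist1h3b and Hist1h3i). The split of reads among such copies is uncertain. With size factors Hist1h2ap had a ratio of 0.658 and passed the 1.5-fold limit.

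The other measured H2A genes were close to equal in both libraries. Hist1h2ae (ENSMUSG00000069272; chr13:23570517-23571220, minus strand) was at 127 CPM in wild type cells against 124 CPM in the knockout, a ratio of 0.980 (0.961 to 0.998). Hist2h2aa1, on chromosome 3, was at 12.3 and 14.1 CPM, a ratio of 1.15. It shares 88.5% of its windows with the annotated gene Gm20634.

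Hist3h2ba was the only measured member past 1.5-fold. This H2B gene of the small Hist3 cluster (ENSMUSG00000056895; chr11:58948920-58949533, plus strand) was at 6.36 CPM (6.02 to 6.72, 1282 UMIs) in wild type cells against 3.80 CPM (3.51 to 4.12, 600 UMIs) in the knockout, a ratio of 0.598 (0.542 to 0.659). Its ratio lay between 0.531 and 0.629 over the alternative scalings, cell limits and weightings. The call was lost at a 2-fold limit or at a minimum of 10 CPM. In thinned cells, each cut at random to 14000 UMIs to give 1 common depth, 7.64% of wild type and 4.87% of knockout cells had a UMI of it.

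The other measured H2B genes were slightly higher in the knockout library. Hist2h2bb (ENSMUSG00000105827, chromosome 3) was at 10.7 and 14.3 CPM, a ratio of 1.34, and the other row with that symbol was below the measured level. Hist1h2bc was at 5.99 and 6.60 CPM and Hist1h2be at 5.58 and 6.33 CPM. All 3 lay within 1.5-fold, and the ratio of Hist1h2bc fell to 0.979 with size factors.

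The H3 genes were near equality. Hist1h3e was at 27.3 and 29.996 CPM, a ratio of 1.10. Hist1h3c was at 15.9 and 16.01 CPM, and Hist1h3f at 6.74 and 6.85 CPM. Hist1h3a (6.72 and 6.20 CPM), Hist1h3b (5.91 and 5.39 CPM) and Hist1h3i (5.41 and 5.25 CPM) had ratios of 0.923, 0.913 and 0.970. None of the 6 measured H3 genes was past 1.5-fold, and 3 of them were on each side of a ratio of 1.

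The H4 genes encode the same core histone but differed in their ratios. Hist1h4d (ENSMUSG00000061482; chr13:23581598-23582735, plus strand) was at 26.8 and 35.2 CPM, 1.31 times as high in the knockout (1.26 to 1.36). Hist1h4i (ENSMUSG00000060639; chr13:22040636-22041362, minus strand) was at 13.4 and 12.2 CPM, with a ratio of 0.914 (0.862 to 0.969). Hist1h4h was at 12.5 and 12.2 CPM (ratio 0.971). Hist1h4d was thus the H4 gene behind the ratio of 1.09 for the type.

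The 48 members below the measured level added 64.8 CPM to the wild type sum and 64.3 CPM to the knockout sum, 4.19% and 4.54% of histone UMIs, with medians of 1.08 and 1.02 CPM and highest values of 4.94 and 4.95 CPM. Without a minimum level 2 of the 69 members were 1.5-fold higher in the knockout (Hist1h1t and Hist3h2a) and 5 lower (Hist3h2ba, Hist2h2be, Hist1h2bq, Hist2h3c2 and Hist1h4f). The 11.8% and 2.35% of all genes hold only at the minimum level. The shares without it are not given here, so whether these counts are unusual was not tested. These low members rest on few UMIs: Hist1h2bq had 1 UMI in wild type and 0 in knockout cells, and the intervals of Hist2h2be, Hist2h3c2 and Hist1h4f included 1.

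Histone RNA was found in nearly every cell but very unevenly. Of 7738 wild type cells thinned to 14000 UMIs, 98.4% (95% exact binomial interval 98.1 to 98.7) had at least 1 histone UMI, as did 97.2% (96.8 to 97.6) of 6281 knockout cells. At full depth 99.2% and 97.7% did. The median was 17 histone UMIs per wild type cell and 7 per knockout cell, whereas the 90th percentiles were 50 and 53. The 20% of cells with the most histone UMIs held 48.3% of them in wild type and 56.8% in knockout cells. Counted in ranges that double in width, the cells of both libraries formed a low and a high range with fewer cells between. A larger share of knockout cells was in the low range. This shape belongs to that scale, since wider ranges take in more UMI values. It was not examined in ranges of equal width. No cell set known to lack histone RNA was used as a measure of free RNA in the droplets, so the part of free RNA in the low range was not tested.

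**Figure D2:**
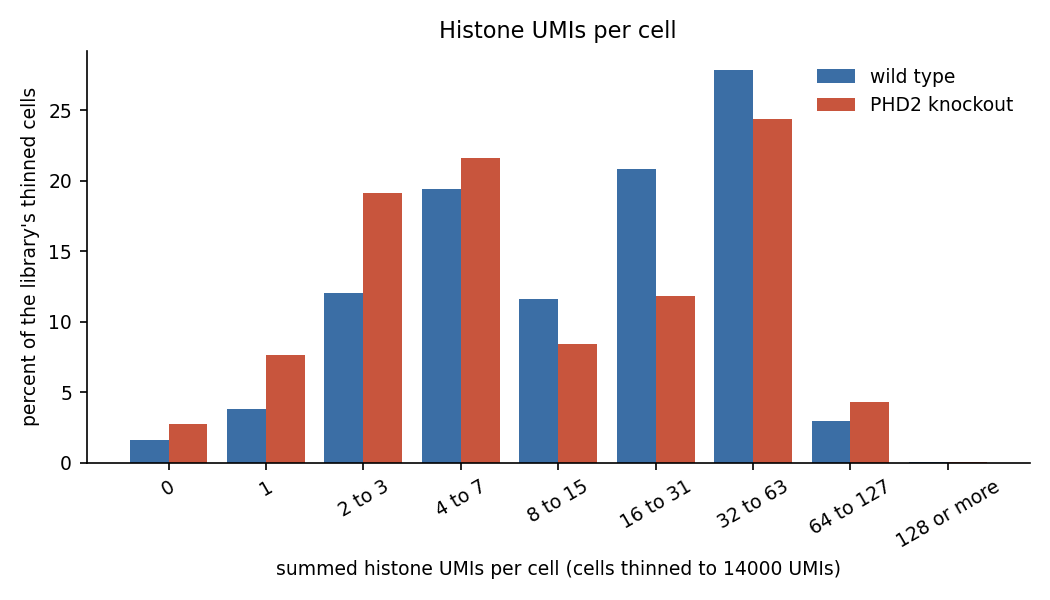
Percent of each library's thinned cells (vertical axis) by the summed histone UMIs of the cell (horizontal axis, ranges that double in width), for wild type (blue) and PHD2 knockout (red). Both libraries have a peak at 4 to 7 UMIs (19.4% and 21.6% of cells), a dip at 8 to 15 (11.6% and 8.44%) and a second peak at 32 to 63 (27.8% and 24.3%). Peaks and dip are those of ranges of unequal width.

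With limits of 10 and 20 UMIs, chosen after seeing these ranges, 41.1% (40.0 to 42.2) of wild type cells against 55.1% (53.8 to 56.3) in the knockout had fewer than 10 histone UMIs. Cells with 20 or more made up 46.7% (45.5 to 47.8) and 38.1% (36.9 to 39.3), and those between 12.3% and 6.80%. These ranges are not cell types. Among cells with 20 or more, all histone genes were at 2844 CPM in the wild type and 3154 CPM in the knockout, H1 at 559.5 and 856 CPM, H2A at 1964 and 1903 CPM, H3 at 132 and 160.0 CPM and Hist1h2ap at 1642 and 1524 CPM. These cells were selected by their histone UMIs, so their histone totals describe the range and are no comparison of the libraries. There were 28.5 H1 UMIs per 100 H2A UMIs in wild type and 45.0 in knockout cells of that range. Among cells with fewer than 10, H1 was at 68.1 and 80.9 CPM and H2A at 155 and 107 CPM.

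By gene, Hist1h2ap was seen in 90.8% of thinned wild type and 80.0% of thinned knockout cells, Hist1h2ae in 59.6% and 50.3% and Hist1h1d in 29.5% and 23.9%. Hist1h1b was seen in 64.9% and 63.3%, Hist1h1a in 34.8% and 34.9%, and Hist1h1e in 49.4% and 51.4%. The shares of Hist1h1b and Hist1h1a thus differed little while their summed levels were 1.41 and 1.15 times as high in the knockout. Hist1h4d was seen in 29.7% and 33.2% and Hist1h3e in 28.4% and 29.1%.

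Histone types varied together from cell to cell. Over the 7738 wild type and 6281 knockout thinned cells, Pearson's r of log(1 + UMIs) between the summed H1 and H2A genes was 0.76 and 0.83, and between H2A and H3 it was 0.52 and 0.63. H3 with H4 gave 0.32 and 0.43, and H2B with H4 gave 0.26 and 0.36, the lowest of the 10 pairs of types in each library. These correlations are over cells of 1 library, which are not independent replicates, and low counts hold them down. Summed histone UMIs had an r of only 0.07 and 0.18 with the cell's total UMIs before thinning.

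Between single genes, 20 members were at 5 CPM or more in both libraries, and all 190 of their pairs had an r above 0, with a median of 0.11 in wild type and 0.16 in knockout cells. The highest values in both libraries belonged to the pairs among Hist1h2ap, Hist1h2ae and Hist1h1b, which are also the most abundant members. Hist1h2ap had an r of 0.72 and 0.79 with Hist1h2ae and of 0.70 and 0.80 with Hist1h1b. Members of 1 type were no more alike than members of different types, with medians of 0.11 in wild type and 0.16 in knockout cells for both kinds of pair. With the summed UMIs of the other members, Hist1h2ap had an r of 0.80 and 0.84. Hist3h2ba (0.09 and 0.05) and Hist1h2bc (0.10 and 0.08) had low values, and in such sparse counts a weak r is no finding.

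**Figure D3:**
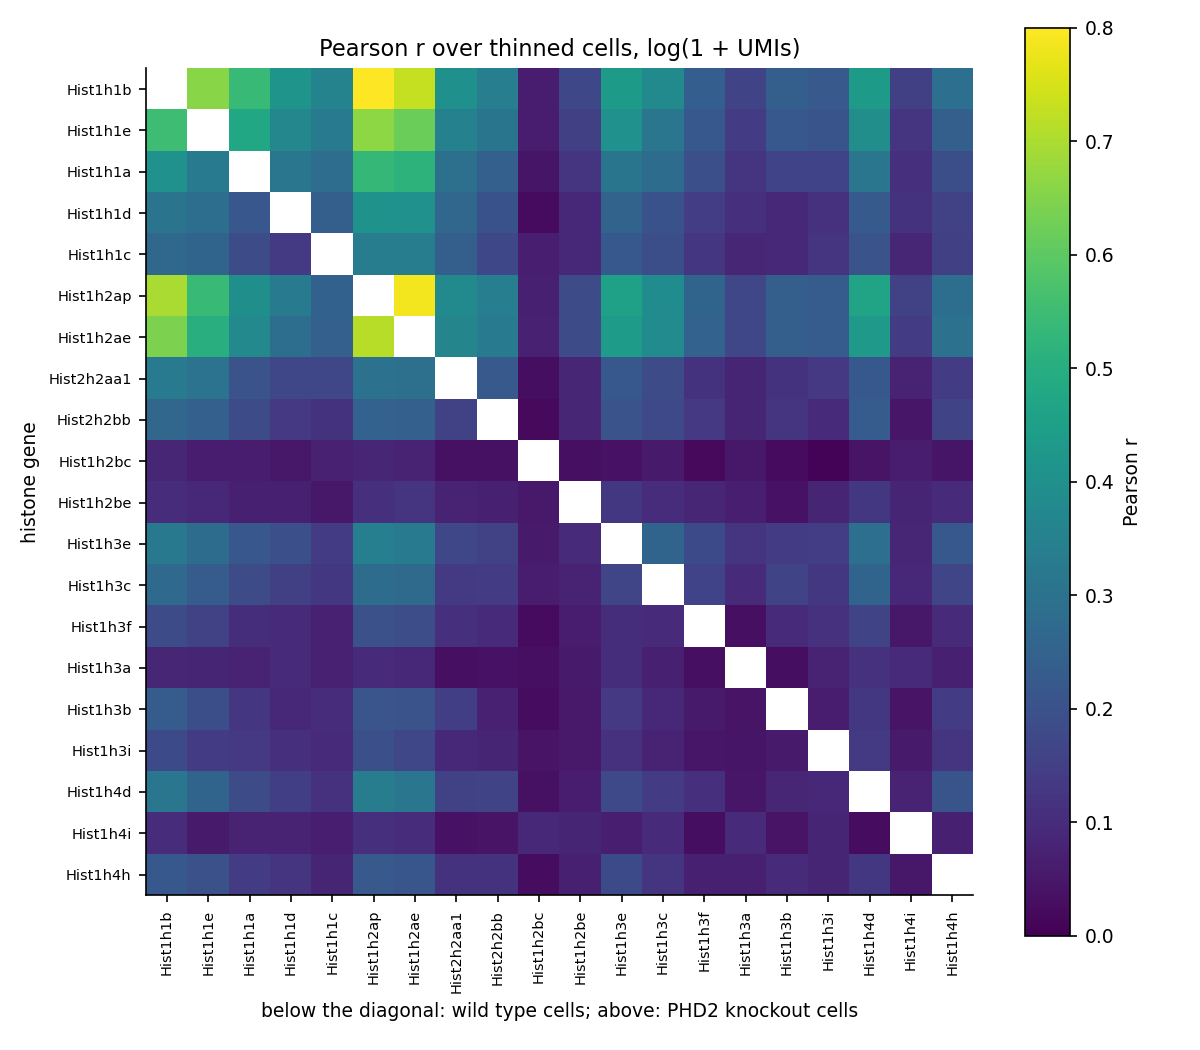
Pearson's r over thinned cells of log(1 + UMIs) for the pairs of the 20 histone genes at 5 CPM or more in both libraries, as a colour scale from 0 to 0.8. Wild type cells are below the diagonal and PHD2 knockout cells above, and Hist1h2ap, Hist1h2ae, Hist1h1b and Hist1h1e make the bright block, up to 0.72 in wild type and 0.80 in knockout cells.

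Outside the family, the 2055 genes at 50 CPM or more in both libraries were ranked by their r with the summed histone UMIs, and 6 were among the 10 highest in each library. H3f3b, which encodes the replication-independent H3.3, had an r of 0.44 in wild type and 0.43 in knockout cells. Top2a, the DNA topoisomerase of dividing cells, had 0.31 and 0.49, and 2810417H13Rik, which encodes a PCNA-binding protein, 0.31 and 0.38. Fbxo5, an inhibitor of the anaphase-promoting complex, had 0.29 and 0.36, Esco2, a cohesin acetyltransferase, 0.22 and 0.34, and Prc1, a protein of the mitotic spindle midzone, 0.18 and 0.28. The other 4 were Ptma, Rbm39, Nasp and Fos in wild type (0.18 to 0.29) and Smc4, Cdk1, Smc2 and Birc5 in knockout cells (0.24 to 0.30). Nasp is a chaperone of free H3 and H4.

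Among lists of genes with known links to the family, the replication-independent histones had the highest r. Their summed UMIs (11 genes) had 0.34 and 0.38 with the summed histone UMIs, 20 S phase genes 0.22 and 0.23, and 20 G2 and M phase genes 0.09 and 0.27. For histone chaperones it was 0.13 and 0.16, and for genes of histone mRNA processing and transcription 0.07 and 0.08. Members of the replication-independent list differed: H3f3b had 0.44 and 0.43, and H2afz, its most abundant gene, 0.15 and 0.19. Slbp, whose protein binds the stem-loop, had 0.05 and 0.03 with the histone sum and 0.25 and 0.24 with the S phase list.

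Ranking cells by the S phase list, which holds no histone gene, gave a steady gradient. In 5 equal bins from the lowest to the highest summed S phase UMIs, all histone genes were at 1177, 1397, 1516, 1763 and 2024 CPM in wild type cells. In knockout cells they were at 976, 1187.5, 1417, 1552 and 1929 CPM. Between the lowest and the highest bin H1 went from 215 to 436 CPM in the wild type and from 254 to 558 CPM in the knockout, H3 from 64.7 to 92.9 and from 57.9 to 93.4 CPM, and Hist1h1b from 99.2 to 231 and from 126 to 315 CPM. All 5 types were higher in the highest than in the lowest bin in both libraries, and bins of a score are ranges and not cell cycle phases.

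Ranked by the G2 and M phase list, the histone level was highest in the middle and low at both ends. In wild type cells it was 1222.5, 1864, 1888, 1728 and 1174 CPM from the lowest to the highest bin. In knockout cells it was 457, 1492, 1995, 1876 and 1243 CPM. H1 took the same course, with 237, 361, 365, 350.3 and 259 CPM in wild type and 139, 397, 545, 518 and 353 CPM in knockout cells. The lowest knockout bin, with a median of 20 UMIs of the list per cell against 41 in the lowest wild type bin, stood far below its neighbours in histone RNA.

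**Figure D4:**
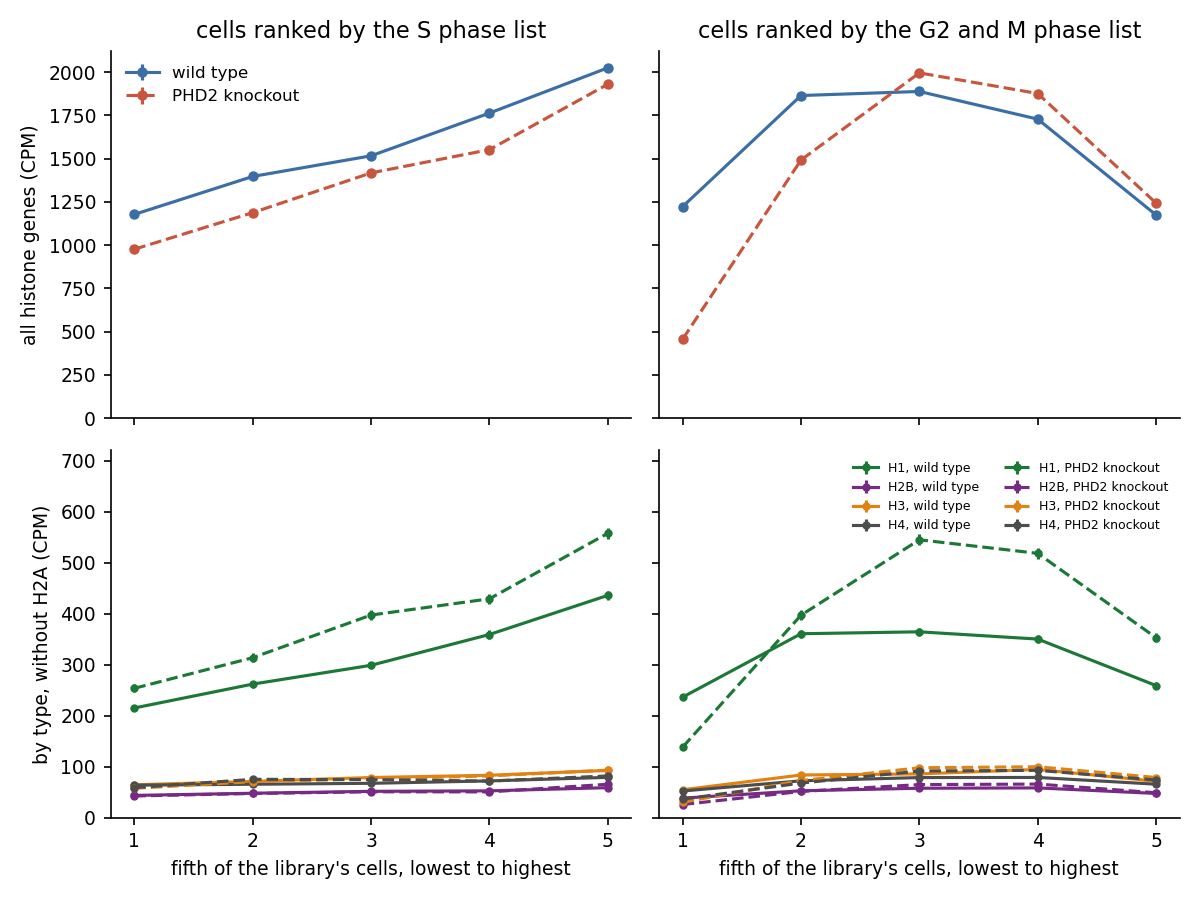
Histone levels in CPM with 95% Poisson intervals in 5 equal bins of each library's thinned cells, ranked by the S phase list (left) or the G2 and M phase list (right). Upper panels show all histone genes, rising with the S phase list to 2024 CPM (wild type) and 1929 CPM (knockout) and peaking in the middle bins of the G2 and M phase list; lower panels show H1, H2B, H3 and H4, with solid lines for wild type and dashed lines for PHD2 knockout.

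The libraries differed in how many cells had few summed UMIs of the G2 and M phase list. Hmgb2 gave most of that sum in both libraries, so these bins depend in large part on that gene. Over the list's 20 genes the median log2 ratio was 0.10 and 0 were called lower in the knockout. The bins were not made without Hmgb2. With bins set on both libraries together, the lowest bin (1 to 41 UMIs of the list) held 9.78% of the wild type and 32.6% of the knockout library's cells. In that bin all histone genes were at 784 CPM in the wild type and 805 CPM in the knockout, and in the bins above it at 1738 and 1883, 1868 and 1993, 1808 and 1659, and 1259 and 1181 CPM. At matched bins the total was thus higher in the knockout in 3 of 5 bins and lower in 2.

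The opposite shifts of H1 and H2A were present in every one of these bins. H1 was at 153 and 224, 339 and 514, 358 and 549, 363 and 452, and 269.99 and 342 CPM (wild type first), higher in the knockout in 5 of 5 bins. H2A was at 515 and 456, 1211 and 1133, 1295 and 1181, 1209 and 959, and 798 and 643 CPM, lower in the knockout in 5 of 5. Bins of the S phase list set the same way gave H1 at 215 and 252 CPM in the lowest and 436 and 556 CPM in the highest bin, and H2A at 783 and 558 CPM and at 1360.4 and 1132 CPM. The lists were themselves at 5052 and 4066 CPM (G2 and M phase) and 1411 and 1402 CPM (S phase) over all kept cells.

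Ranking cells by Hist1h2ap alone showed which members followed the dominant gene. Without Hist1h2ap, histone RNA went from 178 CPM in the lowest to 1446 CPM in the highest bin of wild type cells, and from 159 to 1878 CPM in knockout cells. H1 went from 67.1 to 662 and from 71.7 to 975 CPM, H3 from 25.6 to 155 and from 19.9 to 182 CPM, and H2B from 24.6 to 91.4 and from 20.7 to 106 CPM. Hist3h2ba, by contrast, went from 5.26 to 10.9 CPM in the wild type and from 3.64 to 5.005 CPM in the knockout. The gradient of that gene was thus far shallower than that of the H2B type it belongs to. Hist1h2bc, another measured H2B gene, also had a low r with Hist1h2ap, 0.09 in wild type and 0.07 in knockout cells. A weak tie to Hist1h2ap is therefore not shown to be particular to Hist3h2ba.

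The labelled cell type was checked against markers, and the libraries differed widely in it. All 8 embryonic stem cell markers were measured in both libraries (summed level 1433 and 1241 CPM, Pou5f1 at 143 and 113 CPM), and 2 were 1.5-fold higher and 2 lower in the knockout. All 8 primitive streak and mesendoderm markers were higher in the knockout (summed 71.4 and 956 CPM). None of 6 feeder fibroblast markers was measured (2.62 and 3.66 CPM, with Lum at 0 in the knockout), nor any of 6 markers of the 2-cell-like state (6.77 and 7.77 CPM), and of 6 male germ cell markers only Sycp3 was. The part of the different marker levels in the histone ratios was not tested.

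Cells with and without streak markers differed in histone RNA, and not always in the same direction. Wild type cells with a UMI of T, the Brachyury gene of the primitive streak, were at 1979 CPM (1946 to 2012, 500 cells) and those without at 1547 CPM (1540 to 1555, 7238 cells). In the knockout, 5152 cells with a T UMI were at 1435 CPM and 1129 cells without at 1307 CPM. Knockout cells with a UMI of Mesp1, a factor of the earliest mesoderm, were at 1610 CPM (2057 cells) against 1316 CPM (4224 cells), with H1 at 432 against 370 CPM and H2A at 963 against 752 CPM. The 37 wild type cells with a Mesp1 UMI were lower, at 1338 CPM (1240.1 to 1441) against 1576 CPM (1569 to 1584) in the other 7701, with H1 at 234 against 315 CPM and H2A at 942 against 1062 CPM. The marked cells were thus higher in 3 of 4 comparisons and lower in 1, within 1.5-fold in each. In the order given, the G2 and M phase list was at 4915 against 4986, 4018 against 3748, 3939 against 3985 and 3892 against 4986 CPM in the same cells.

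A small set of cells, summed together, had another histone pattern, which was uneven among them. Zscan4 genes mark a 2-cell-like state that few embryonic stem cells enter at a time, and 29 wild type and 18 knockout thinned cells had 2 or more UMIs over Zscan4b, Zscan4c, Zscan4d and Zscan4f. In them H4 was at 849.8 CPM against 66.9 CPM in the other 7709 wild type cells, 12.7 times as high, and at 599 against 71.2 CPM in the knockout, 8.42 times as high. H2B was 10.7 and 5.76 times as high (527 against 49.4 CPM and 294 against 50.9 CPM), and H3 4.85 and 3.68 times as high (374 against 77.2 CPM and 278 against 75.6 CPM). H1 (328 against 314 and 329 against 390.5 CPM) and H2A (924 against 1062 and 567 against 822 CPM) did not share this.

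**Figure D5:**
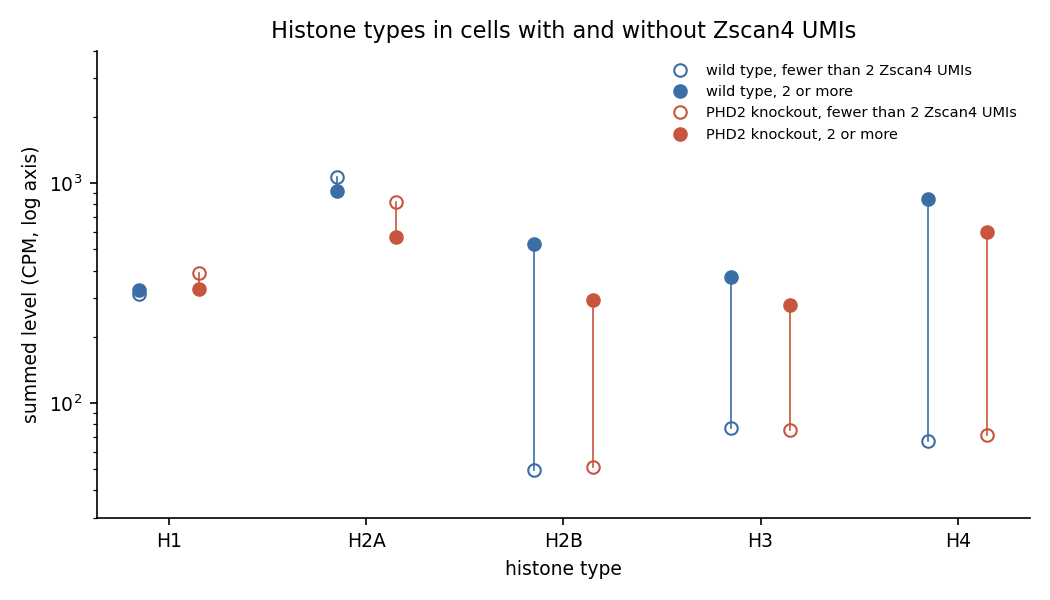
Summed level of each histone type (CPM, log axis) in thinned cells with 2 or more Zscan4 UMIs (filled points, 29 wild type and 18 PHD2 knockout cells) and with fewer (open points), joined by a line per library. H2B, H3 and H4 are far higher in the Zscan4 cells of both libraries, H4 by 12.7 and 8.42 times, while H1 and H2A points lie close together.

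The excess of H4 was mainly that of Hist1h4i. This gene was at 687 CPM (609 to 773) in wild type cells with Zscan4 UMIs and 11.2 CPM in the rest, 61.4 times as high (53.8 to 70.0), with a UMI in 22 of 29 cells. In the knockout it was at 488 CPM (406 to 582) against 10.9 CPM, 44.8 times as high (36.8 to 54.1), with a UMI in 11 of 18 cells. Hist1h4d, the most abundant H4 gene over all cells, was at 27.1 against 28.3 CPM in the wild type and 39.7 against 35.3 CPM in knockout cells. Within H4 the excess in Zscan4 cells thus did not extend to every gene.

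Some members of every type had an excess in wild type cells, most often those of H2B, H3 and H4. The abundant genes Hist1h2ap, Hist1h1b and Hist1h1e were lower. Hist1h2ae was at 1.03 times the level of the rest in wild type and 0.94 times in knockout cells. Hist1h1d was at 1.07 and 1.16 times, and the intervals of both genes included 1. The interval of the ratio was above 1 for 11 of 19 H2B, 6 of 12 H3, 6 of 13 H4, 5 of 19 H2A and 2 of 6 H1 genes in wild type cells, and for 8, 5, 4, 0 and 1 of them in the knockout. The 5 H2A genes rest on 2 to 8 UMIs each, and the 2 H1 genes were Hist1h1a (2.48 times) and Hist1h1c (3.36 times, and 2.95 times in the knockout). These intervals take no account of the spread between cells. The same count over all genes was not made, so whether these counts are unusual was not tested. In wild type cells with Zscan4 UMIs, Hist3h2ba was at 177 against 5.79 CPM (30.6 times, in 12 of 29 cells). Hist1h2bh was at 66.5 against 1.92 CPM (34.7 times, 27 UMIs in 5 of 29 cells). Hist1h3a was at 91.1 against 6.62 CPM (13.8 times, in 14 of 29 cells) and Hist1h3c at 118 against 16.04 CPM (7.37 times, in 14 of 29 cells). In knockout cells Hist1h2bj was at 75.4 against 3.59 CPM (20.99 times, 19 UMIs in 4 of 18 cells). Hist1h3a was at 55.6 against 6.16 CPM (9.02 times, in 5 of 18 cells) and Hist3h2ba at 31.7 against 3.83 CPM (8.28 times, 8 UMIs in 4 of 18 cells). Hist1h2ap was not among them, at 667 against 889.7 CPM in the wild type and 405 against 659.6 CPM in knockout cells, and Hist1h1b was at 0.70 times the level of the rest in both libraries. Hist1h1e was at 0.54 times that level in wild type and 0.51 times in knockout cells. The intervals of Hist1h2ap, Hist1h1b and Hist1h1e were below 1 in both libraries. The members named here, apart from the measured ones, were chosen after their values were seen.

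The excess was uneven among the Zscan4 cells. Of 29 wild type cells 20 were above the median of the other cells in H4, 22 in H2B and 17 in H3, and of 18 knockout cells 9, 10 and 14 were. Over thinned cells the median was 0 UMIs for H2B in both libraries and for H3 in the knockout. It was 1 UMI for H4 in both libraries and for H3 in the wild type. These counts are therefore not comparable between types or libraries. The highest cell was at 16500 CPM of all histone genes in the wild type and 11429 CPM in the knockout. Without it in each library, H4 was still 4.37 times as high in the knockout, H3 3.60 and 2.67 times in wild type and knockout cells, H2B 7.54 times in wild type cells, and Hist1h4i 57.9 and 20.8 times. The Zscan4 cells had a median of 19213 and 20053 total UMIs against 21076 and 21855 in the other cells, and a median of 1.48% and 1.61% of mitochondrial UMIs against 1.06% and 1.32%, whose part in the result was not tested.

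Promoters were compared because members varied together across cells. Windows of 250 bases before to 50 bases after the start were taken from RefSeq (GRCm38.p6) and searched on both strands. A window was matched for 63 members, and 20 of them (10 H2A and 10 H2B genes) overlap the window of another member. The 2 rows named Hist2h2bb share 1 window, which is counted for each and holds CCAAT and ATTTGCAT, so the 63 members have 62 windows. CCAAT was present in 85.7% of the members against 37.4% of all 32851 promoters, in 51 of 51 members outside H4 and in 3 of 12 H4 genes. TATAAA was present in 55.6% against 13.6%. ATTTGCAT, the octamer bound by POU factors, was present in 14 members (22.2% against 1.74%), 7 of 18 H2A and 7 of 17 H2B genes. AAACACA, known from H1 promoters, was present in 5 of 6 H1 genes, in 2 H2A and in 2 H2B genes (14.3% of members against 7.18%). TTTCGCGC was present in 9 members, 5 H2A and 4 H2B genes (14.3% against 0.323%). The following segments show the 150 bases directly before the start of 4 genes, in the sense of transcription with searched motifs in capitals. The segments lie at chr13:21780626-21780775 (minus strand) for Hist1h1b, chr13:23571221-23571370 (minus strand) for Hist1h2ae, chr11:58948761-58948910 (plus strand) for Hist3h2ba and chr13:22041363-22041512 (minus strand) for Hist1h4i.
Hist1h1b: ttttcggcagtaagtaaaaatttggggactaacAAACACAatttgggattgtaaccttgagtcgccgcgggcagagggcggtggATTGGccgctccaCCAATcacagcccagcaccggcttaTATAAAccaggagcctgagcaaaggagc
Hist1h2ae: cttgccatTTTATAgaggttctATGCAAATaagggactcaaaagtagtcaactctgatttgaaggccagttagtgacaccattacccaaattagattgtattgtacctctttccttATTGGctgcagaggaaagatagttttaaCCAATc
Hist3h2ba: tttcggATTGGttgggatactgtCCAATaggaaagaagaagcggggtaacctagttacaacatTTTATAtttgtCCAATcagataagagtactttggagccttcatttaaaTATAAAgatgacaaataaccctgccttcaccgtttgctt
Hist1h4i: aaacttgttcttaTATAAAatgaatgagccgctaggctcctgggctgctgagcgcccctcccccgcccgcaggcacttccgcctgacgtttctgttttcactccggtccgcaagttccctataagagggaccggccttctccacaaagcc

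In its printed segment, Hist1h1b holds the AAACACA motif, 2 CCAAT boxes of opposite orientation and TATAAA near the start. Hist1h2ae holds the octamer on the opposite strand. Hist3h2ba, the member lower in the knockout library and high in Zscan4 cells, has CCAAT and TATAAA in its window but neither the octamer nor AAACACA. Hist1h4i, also high in Zscan4 cells, has TATAAA 137 bases before the start and no CCAAT. A match says only that these letters are in the window.

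Most partners of the family outside the histone clusters differed by less than 1.5-fold between the libraries. The counts per list stand beside 11.8% higher and 2.35% lower among all 8540 measured genes, whose median log2 ratio was 0.16. Of 11 replication-independent histone genes 2 were 1.5-fold higher in the knockout and 0 lower, with a median log2 ratio of 0.12. The pair that was higher encodes macroH2A proteins, H2afy at 55.7 and 137 CPM (2.46 times) and H2afy2 at 9.52 and 15.7 CPM (1.65 times). H2afz, the most abundant of the list, was at 4208 and 3637 CPM, H2afv at 432 and 367 CPM, H3f3b at 2025 and 2203 CPM and H3f3a at 1761 and 1589 CPM.

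Among 18 measured genes of histone mRNA processing and transcription none passed 1.5-fold in either direction (median 0.15). Slbp was at 159 and 145 CPM, and Npat, the coactivator of histone gene transcription, at 16.7 and 23.1 CPM. Casp8ap2, a protein of the same nuclear bodies, was at 49.4 and 66.6 CPM and Ccne1, the cyclin that acts on NPAT, at 57.2 and 47.8 CPM. Of 20 measured histone chaperones and their modifiers 1 was higher, Rbbp7 at 229 and 362 CPM, and 0 lower (median 0.09). Npm1, the most abundant, was at 7539 and 7191 CPM, Chaf1b, a subunit of the assembly factor CAF-1, at 50.4 and 42.9 CPM and Atrx, an H3.3 chaperone subunit, at 88.4 and 125 CPM. None of the 20 S phase genes passed 1.5-fold (median 0.01), with Tyms at 168 and 158 CPM, Mcm5 at 109 and 88.0 CPM and Mcm4 at 64.2 and 82.6 CPM. None of the 20 G2 and M phase genes did either (median 0.10), with Hmgb2 at 2977 and 2119.8 CPM, Ube2c at 384 and 279 CPM and Cenpe at 48.6 and 68.4 CPM. Hmgb2 alone thus held most of the list's summed 5052 and 4066 CPM.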

How the data were processed

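The authors deposited 1 matrix of whole-number UMI counts per gene and barcode for each library (9651 wild type and 7713 knockout barcodes, 226179474 and 173470962 UMIs). Per the file headers, Cell Ranger 4.0.0 made them, and mm10 and Seurat are also named in the submitters' processing notes. The values are raw counts. Read number and read end were not given in the sources used here.

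Cells were kept with at least 1000 genes and at most 10% mitochondrial UMIs (391 and 298 barcodes were below the first limit, 157 and 150 above the second). Scrublet (scanpy 1.11.5) called 0 and 0 cells with its automatic threshold, below 0.5% and so not working, and the highest scores were removed up to 0.8% per 1000 barcodes, 712 (7.72%) and 456 (6.18%) cells. The kept cells had a median of 20434 and 20999 UMIs and 3576 and 3854 genes, and 16 kept barcodes occur in both libraries. UMIs were summed per library into CPM, with exact Poisson intervals for levels and exact conditional binomial (Clopper-Pearson) intervals for ratios, both at 95%. Shares, correlations and bins used cells thinned to 14000 UMIs, leaving out 777 and 646 shallower cells. PCR copies are collapsed by UMIs, and intervals cover counting error only. The calculations were tested on simulated data (Python 3.11.15, numpy 2.4.6, scipy 1.17.1, pandas 2.3.3).

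Groups came from the sample titles. Gene coordinates came from GENCODE M21, which matched 27645 genes by identifier, and 2 members (Hist1h2bm and Hist1h2bh) had no transcript there. In place of protein identity, planned for near-identical members, shared 90-base windows of transcripts were used. The text names every measured member, those past 1.5-fold, the 10 genes outside the family most alike in each library, and the ends and most abundant member of other lists, with Slbp and Npat. Members, lists and rules were chosen with earlier results of these data known. Kmt5a and Ars2 were not found under these symbols.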

Additional observations from a re-analysis of the deposited data

How the results depend on the processing

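No paired analysis was possible because the labels carry no replicate numbers and each group is 1 library, and for the same reason no replicate could be left out. Alternatives were no limits on cells, stricter limits (2000 genes, 5% mitochondrial), no doublet removal, other scaling, pseudocounts, minimum levels, folds, thinning depths and bin numbers. The G2 and M phase weighting, the limits of 10 and 20 histone UMIs and the other Zscan4 sets were chosen after seeing the data. Limits on cells, doublet removal and pseudocounts moved the type ratios by less than their counting intervals and no count of calls by over 1.5 times. The cause of the shifts that follow was not tested.

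Under size factors (median of ratios) the measured members had a median log2 ratio of -0.13 (all genes moved by 0.172), 2 members were lower (Hist1h2ap added), and the ratios were 0.812 for all members, 1.02 without Hist1h2ap, 1.16 for H1, 0.694 for H2A, 0.922 for H2B, 0.891 for H3 and 0.963 for H4. With the mean over cells of each cell's CPM they were 0.874, 1.05, 1.20, 0.759, 0.936, 0.923 and 1.01. With 5 S phase bins weighing equally they were 0.907 for all members, 1.11 without Hist1h2ap, 1.26 for H1 and 1.05 for H4. With 5 G2 and M phase bins weighing equally they were 1.01, 1.24 without Hist1h2ap, 1.40 for H1, 0.869 for H2A, 1.12 for H2B, 1.12 for H3 and 1.16 for H4, and the median was 0.15.

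Without a minimum level 2 members were higher and 5 lower, at 10 CPM 0 were lower (median 0.16), at a lower fold limit 5 were higher and 2 lower, and at 2-fold 0 were lower. The shares of all genes at these settings are not given here, so these counts are no result about the members. Shares of cells with a histone UMI were 93.4% and 88.8% at 7000 UMIs and 99.2% and 97.7% unthinned. Unthinned counts gave an r of 0.38 and 0.48 for H2B with H4 in wild type and knockout cells and 0.28 for all members with replication-independent histones in wild type, and Spearman's rho with the G2 and M phase list was -0.021 and 0.19. The ratio of the highest to the lowest bin along the S phase list was 1.56 in wild type and 1.75 in knockout cells with 3 bins and 1.94 and 2.28 with 10, and along the G2 and M phase list 1.29 and 2.34 with 3 and 2.37 and 8.21 with 10. Size factors left 1 replication-independent histone gene and 0 chaperones higher and made 2 G2 and M phase genes lower.

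In cells with 1 or more Zscan4 UMIs, H2B, H3 and H4 were 5.18, 2.66 and 6.26 times the level of the rest in wild type and 3.08, 2.17 and 3.97 times in knockout cells. With 2 or more UMIs in unthinned cells the wild type values were 6.97, 3.51 and 8.07. Without the cell of the most histone UMIs H2B was 7.54 and H3 3.60 times as high in wild type, and H3 2.67 and H4 4.37 times in knockout cells.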
